A study of Homo sapiens with 6 samples.

Results

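The APOBEC3 family of cytidine deaminases was examined in RNA-seq of HCT116 cells, a human colorectal carcinoma line, after knockdown of the RNA-binding protein NONO. The family was taken as its 7 human genes, APOBEC3A, APOBEC3B, APOBEC3C, APOBEC3D, APOBEC3F, APOBEC3G and APOBEC3H, given by name, out of 62492 genes listed in each library. All libraries came from HCT116 cells of the genotype labelled WT, which were transfected at 20 nM with either siControl or siNONO using lipofectamine RNAiMAX. Each group held 3 libraries of polyA RNA, labelled as Set 1, Set 2 and Set 3, with 1 siControl and 1 siNONO library per Set. The study used a single siNONO duplex, so loss of NONO and other effects of that duplex cannot be told apart, and the series describes the libraries only as biological replication, without saying what a Set was.

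APOBEC3 enzymes bind single-stranded DNA, and with a zinc ion held in the active site they remove the amino group of cytosine and leave uracil. They are best known for restricting retroviruses such as HIV-1, whose Vif protein directs several of them to a ubiquitin ligase, and for restricting endogenous retroelements. APOBEC3A and APOBEC3B are also known as sources of mutation in tumour genomes. The genes arose by duplication and lie side by side on chromosome 22, and their transcripts are therefore similar enough that some reads fit more than 1 of them.

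That similarity bears on every value given for the family, so the stretch that encodes the zinc-binding site is shown for each gene. Each line gives 30 coding bases from GRCh37, plus strand, that end at the second zinc-binding cysteine codon, with capitals marking the codons from the proline before the first of these cysteines to the second cysteine. Where a gene encodes 2 such centres, as APOBEC3B, APOBEC3D, APOBEC3F and APOBEC3G do, the second is shown.
APOBEC3A, chr22:39357506-39357535: tcctggagcCCCTGCTTCTCCTGGGGCTGT
APOBEC3B, chr22:39387451-39387480: tcctggagcCCCTGCTTCTCCTGGGGCTGT
APOBEC3C, chr22:39413867-39413896: tacacatcttggagcCCTTGCCCAGACTGT
APOBEC3D, chr22:39427795-39427824: tacacatcttggagcCCTTGCCCAGAGTGT
APOBEC3F, chr22:39448175-39448204: tacacatcttggagcCCTTGCCCAGAGTGT
APOBEC3G, chr22:39482392-39482421: ttcacctcctggagcCCCTGCTTCAGCTGT
APOBEC3H, chr22:39497326-39497355: tacctcacgtggagcCCCTGCTCCTCCTGT

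The stretches of APOBEC3A and APOBEC3B differed at 0 of 30 bases, as did those of APOBEC3D and APOBEC3F, and APOBEC3C differed from the latter pair at 1 base. Over whole reference transcripts, the longest run of identical bases was 196 between APOBEC3A and APOBEC3B, 222 between APOBEC3D and APOBEC3F, 206 between APOBEC3F and APOBEC3G, and 199 between APOBEC3B and APOBEC3D. APOBEC3H shared at most 22 bases in a row with any other member. The share of a transcript's 100-base words that occur in another gene was 84.8% for APOBEC3D, 15.2% for APOBEC3B, 12.7% for APOBEC3A, 7.30% for APOBEC3G, 5.96% for APOBEC3F and 0 for APOBEC3C and APOBEC3H. The estimated counts showed the same division, since RSEM splits a read that fits several genes and leaves a fraction. APOBEC3C and APOBEC3H had whole counts, within 0.005, in 6 of 6 libraries, whereas APOBEC3B, APOBEC3D, APOBEC3F and APOBEC3G had none in 6. The values of the latter 4 genes therefore rest in part on how RSEM divided shared reads.

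The library totals ran from 21765393 to 32659002 estimated counts. The targeted gene was checked first. NONO, at chrX:70474664-70521372, had 363, 330 and 407 TPM (a transcript level corrected for gene length and library size) in siControl and 75.7, 75.5 and 81.7 TPM in siNONO, which left 18.9% of its siControl level in the fit. Of 17000 genes with enough counts to be tested, 7924 were called, meaning that the Benjamini-Hochberg-adjusted p of the edgeR quasi-likelihood F-test was at most 0.05, and the median log2 fold change (siNONO over siControl) over all of them was -0.0048. Of the markers of an epithelial line, EPCAM, KRT8, KRT18, KRT19, CDH1 and CDX2 exceeded 1 TPM, whereas VIL1 had a mean of 0.103 TPM in siControl. The 7 epithelial markers summed to between 2880 and 3014 TPM in siControl and between 2720 and 3010 TPM in siNONO. Leukocytes express several APOBEC3 genes, and none of 8 leukocyte markers reached a mean of 1 TPM in either group. Their sum was 1.1 to 1.2 TPM in siControl and 0.51 to 0.9 TPM in siNONO, with CD3D at 0 in all libraries and PTPRC at a count of 1 over the 6 libraries. Of 5 fibroblast markers, COL1A1 alone exceeded 1 TPM, and the sums were 16.5 to 19.2 TPM in siControl and 16.4 to 18.4 TPM in siNONO.

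In HCT116 cells the family was dominated by APOBEC3C, followed by APOBEC3B and then APOBEC3F in siControl and by APOBEC3F and then APOBEC3B in siNONO. APOBEC3B was lower in siNONO at 72.7% of its siControl level, while APOBEC3C, APOBEC3F, APOBEC3G and APOBEC3H were higher. APOBEC3D was not called in either direction, and APOBEC3A, at 3.02 counts or fewer in each library, did not pass the filter on low counts. Thus 6 of 7 members were tested, of which 5 were called, against 46.6% of all genes tested. Of the 6, 4 were higher, against 23.2% of all genes tested, and 1 was lower, against 23.4%. The CPM values of the groups (counts scaled to library size with TMM factors, the scale of the fit) did not overlap for 5 of the 6, against 47.8% of all genes tested, and the TPM values did not overlap for 2, APOBEC3B and APOBEC3F, against 43.6%. Without the Set 1 library of siControl or of siNONO, 3 members were called, while the calls over all genes fell from 7924 to 6572 and 6497. The changes of the 5 called members ranged from -0.46 to 0.82 on the log2 scale, and the median size of a change over all 17000 genes was 0.21.

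**Figure D1:**
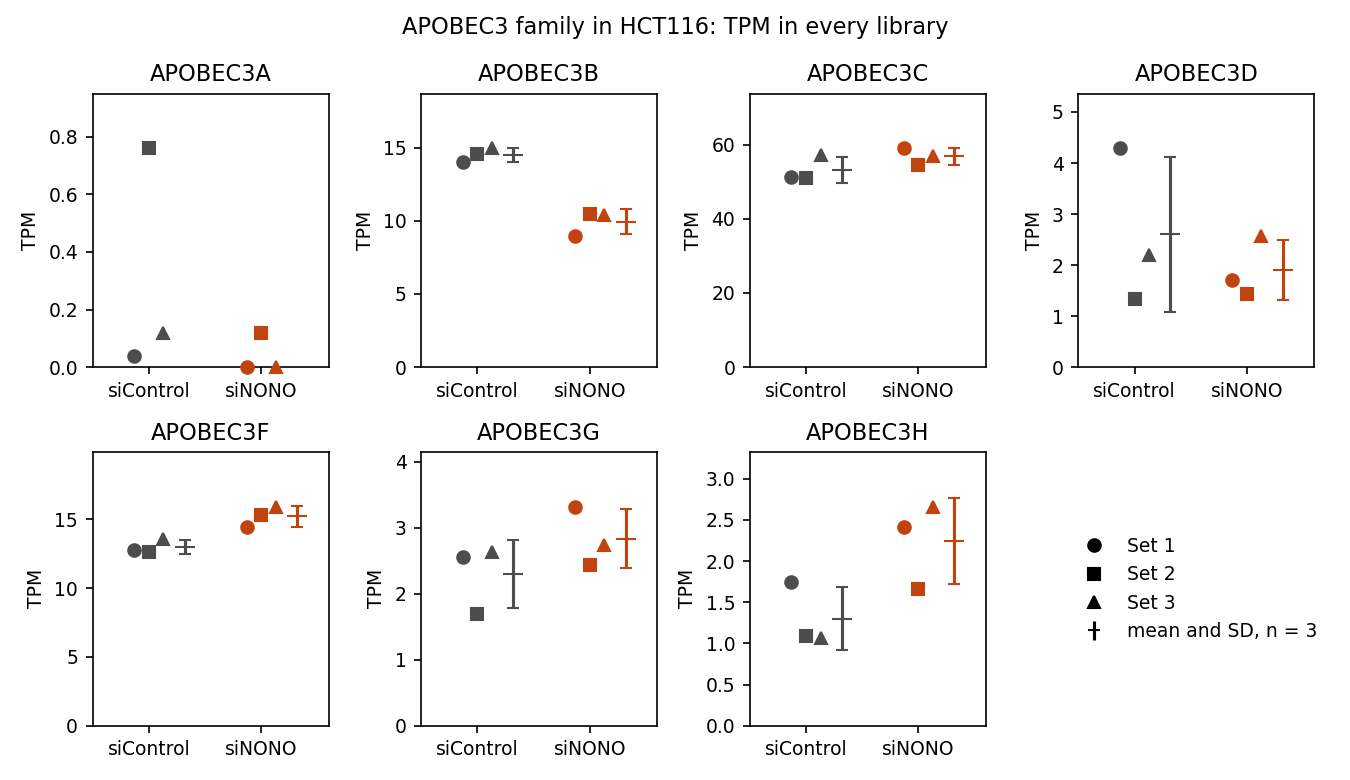
TPM of each APOBEC3 gene in the 3 siControl (grey) and 3 siNONO (orange) libraries, with 1 panel and a linear axis from 0 for each gene, symbols for the Set, and the mean and SD (n = 3) beside the points except for APOBEC3A, whose libraries include 0. APOBEC3B is below its siControl range in every siNONO library and APOBEC3F is above it, whereas the points of APOBEC3C, APOBEC3D, APOBEC3G and APOBEC3H overlap between groups on this scale.

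APOBEC3B (chr22:39378352-39388809), a nuclear deaminase with 2 zinc centres of which the second is the active one, was the only member called lower. Its TPM was 14.01, 14.55 and 14.95 in siControl and 8.97, 10.47 and 10.40 in siNONO, in Sets 1, 2 and 3. Every siNONO library was thus below every siControl library. The estimated counts were 453, 401 and 325 in siControl and 269, 312 and 304 in siNONO. In CPM, the mean was 14.4 ± 0.571 CPM in siControl and 10.5 ± 0.964 CPM in siNONO (SD, n = 3). The log2 fold change was -0.46 (SE 0.0735, 95% confidence interval -0.62 to -0.30, edgeR, Benjamini-Hochberg-adjusted p = 0.000227). It was -0.55, -0.38 and -0.45 in Sets 1, 2 and 3, so the size differed little between Sets. These are bulk libraries, in which fewer cells that express the gene and less RNA per cell cannot be told apart. The call held with each library left out, at -0.50 to -0.41, and with the few APOBEC3A counts added to APOBEC3B, at -0.46.

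APOBEC3F (chr22:39436609-39451977), a cytoplasmic restriction factor with 2 zinc centres that is packaged into virions, was called higher. Its TPM was 12.8, 12.6 and 13.6 in siControl and 14.4, 15.3 and 15.9 in siNONO, again without overlap between the groups. The estimated counts were 975, 816 and 722 in siControl and 1034, 1031 and 1022 in siNONO. The log2 fold change was 0.25 (SE 0.0522, 95% confidence interval 0.14 to 0.37, edgeR, Benjamini-Hochberg-adjusted p = 0.00150), which is 1.19-fold. It was positive in each Set, at 0.29, 0.31 and 0.15. The call held with each library left out, and was lost when log2(TPM + 1) was tested with limma (0.21, adjusted p = 0.0620).

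The exchange of rank between these genes was seen within each library, where depth cancels. The ratio of APOBEC3B TPM to APOBEC3F TPM was 1.09, 1.15 and 1.10 in siControl and 0.622, 0.684 and 0.653 in siNONO, so APOBEC3B was the more abundant transcript in every siControl library and the less abundant in every siNONO library. The means were 1.12 ± 0.0320 and 0.653 ± 0.0309 (SD, n = 3). An exact two-sided permutation test of the ratio, which did not use the pairing by Set, gave p = 0.1. That is the smallest value that 3 against 3 unpaired libraries allow. The TPM values of both genes, seen beforehand, did not overlap between groups and moved in opposite directions. The outcome of the test was therefore fixed in advance, and it adds no evidence. On the log2 scale of the fit, the change of APOBEC3B was below that of APOBEC3F by 0.84, 0.70 and 0.60 in Sets 1, 2 and 3. These genes share a run of 131 bases, and reads that fit both could be assigned to either.

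APOBEC3C (chr22:39410262-39416357), a deaminase with a single zinc centre, was the most abundant member in every library and the one with the most counts, 1964 to 2786. Its TPM was 51.25, 51.10 and 57.17 in siControl and 59.01, 54.39 and 56.96 in siNONO, and the groups overlapped. In CPM they did not, with 82.9, 84.4 and 89.5 in siControl and 97.4, 96.2 and 92.6 in siNONO. The fitted log2 fold change was 0.16 (SE 0.0407, 95% confidence interval 0.07 to 0.25, edgeR, Benjamini-Hochberg-adjusted p = 0.00637), a rise of 1.12-fold. It was 0.23, 0.19 and 0.05 in Sets 1, 2 and 3, and thus near 0 in Set 3. The call was lost without the Set 1 library of siControl (0.12, adjusted p = 0.0687) or of siNONO (0.12, adjusted p = 0.0836), and with limma on log2(TPM + 1) (0.09, adjusted p = 0.224).

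APOBEC3G (chr22:39473072-39483748), the member best known as the target of HIV-1 Vif, was low and was called higher. Its estimated counts were 79.2, 47.5 and 42.2 in siControl and 103.48, 71.95 and 82.55 in siNONO, or 2.40, 1.72 and 1.91 CPM against 3.60, 2.59 and 2.97 CPM. The groups did not overlap in CPM. In TPM they overlapped, at 2.56, 1.70 and 2.64 against 3.32, 2.44 and 2.74. In the fit the log2 fold change was 0.60 (SE 0.173, 95% confidence interval 0.23 to 0.98, edgeR, Benjamini-Hochberg-adjusted p = 0.0123), or 1.52-fold, and it was nearly the same in each Set, at 0.58, 0.59 and 0.63. The call was lost without the Set 1 library of siControl (adjusted p = 0.0509) or of siNONO (adjusted p = 0.0678), and with DESeq2 (adjusted p = 0.136), while the size of the change stayed at 0.60 to 0.62. With limma it was 0.22 on log2(TPM + 1) (adjusted p = 0.191) and 0.30 on log2(TPM + 0.1) (adjusted p = 0.217), and not called on either. The effective length that RSEM assigned to APOBEC3G, by which TPM is divided, varied by 1.41 times between libraries, and its part in this was not tested.

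APOBEC3H (chr22:39493229-39500072), a single-centre member that restricts retroviruses in some of its natural forms, had the highest log2 fold change of the tested members and the fewest counts. It had 31, 15 and 13 counts in siControl and 36, 30 and 38 counts in siNONO, all of them whole numbers. In TPM these were 1.74, 1.09 and 1.07 against 2.41, 1.66 and 2.66, so that the Set 1 library of siControl was above the lowest siNONO library. In CPM the groups did not overlap, at 0.941, 0.548 and 0.592 against 1.26, 1.08 and 1.36. For APOBEC3H the log2 fold change was 0.82 (SE 0.296, 95% confidence interval 0.18 to 1.47, edgeR, Benjamini-Hochberg-adjusted p = 0.0372), with 0.42, 0.96 and 1.18 in Sets 1, 2 and 3. The call was close to the threshold. It was lost without any 1 of the 4 libraries of Sets 2 and 3, with adjusted p = 0.118 and 0.136 without the siControl libraries of Sets 2 and 3 and adjusted p = 0.137 and 0.154 without the siNONO libraries, and with DESeq2 (adjusted p = 0.216).

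**Figure D2:**
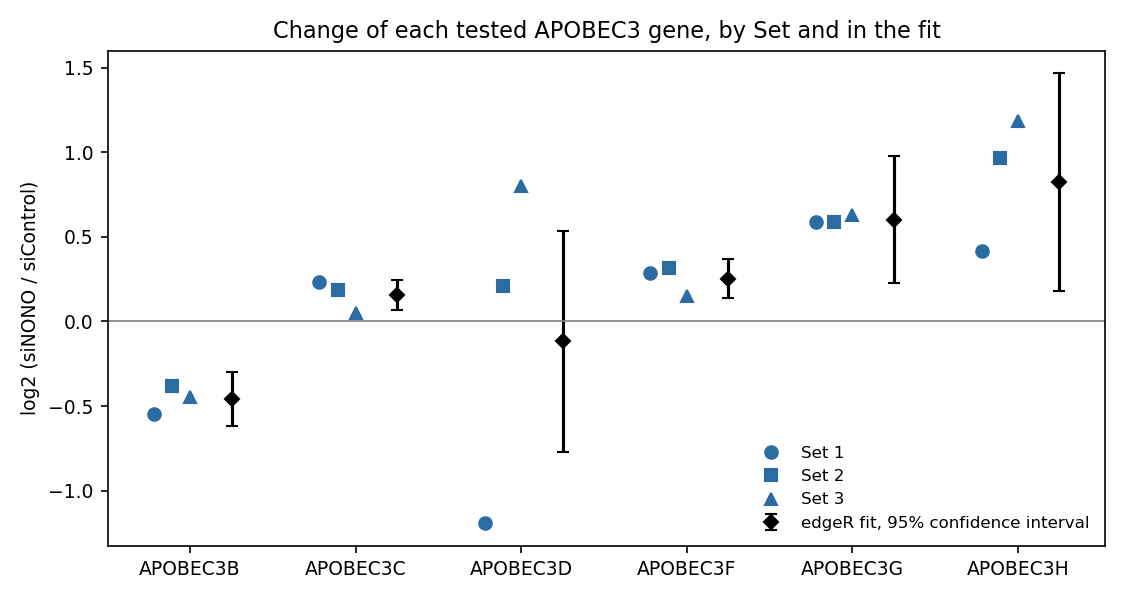
Log2 ratio of siNONO to siControl CPM in Sets 1, 2 and 3 (blue symbols) and the log2 fold change of the edgeR fit with its 95% confidence interval (black) for the 6 tested APOBEC3 genes. APOBEC3B is below 0 and APOBEC3C, APOBEC3F, APOBEC3G and APOBEC3H are above 0 in every Set, whereas APOBEC3D runs from -1.19 to 0.80.

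APOBEC3D (chr22:39417118-39429282), a restriction factor with 2 zinc centres, was the tested member that varied most between libraries of the same group. Its estimated counts were 132, 57.5 and 36.5 in siControl and 50.2, 66.9 and 80.1 in siNONO, and the groups overlapped. The log2 fold change was -0.12 (SE 0.299, 95% confidence interval -0.77 to 0.53, edgeR, Benjamini-Hochberg-adjusted p = 0.778). It was -1.19, 0.21 and 0.80 in Sets 1, 2 and 3, and without the Set 1 library of siControl or of siNONO the sign turned, to 0.50 and 0.49. A change of the size seen for APOBEC3B or APOBEC3F in either direction lies within this interval and was not detectable.

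The spread of APOBEC3D went with the counts of another annotated gene that holds nearly the same sequence. The readthrough gene ENSG00000284554 (chr22:39410368-39429281) begins with an exon inside APOBEC3C and continues through exons of APOBEC3D, and it holds 83.7% of the 100-base words of APOBEC3D. It had 0, 27.6 and 19.4 counts in siControl and 41.9, 0 and 0 counts in siNONO. In the 3 libraries where it was at 0, APOBEC3D had its 3 highest counts. Added together, both genes had 4.03, 3.09 and 2.57 CPM (here without TMM factors) in siControl and 3.21, 2.37 and 2.87 in siNONO, and the coefficient of variation in siControl was 23.0%, against 48.4% for APOBEC3D alone. The log2 fold change of the sum was -0.19 (SE 0.169, edgeR, Benjamini-Hochberg-adjusted p = 0.400), so the sum, too, was not called. This addition was chosen after the data were seen.

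**Figure D3:**
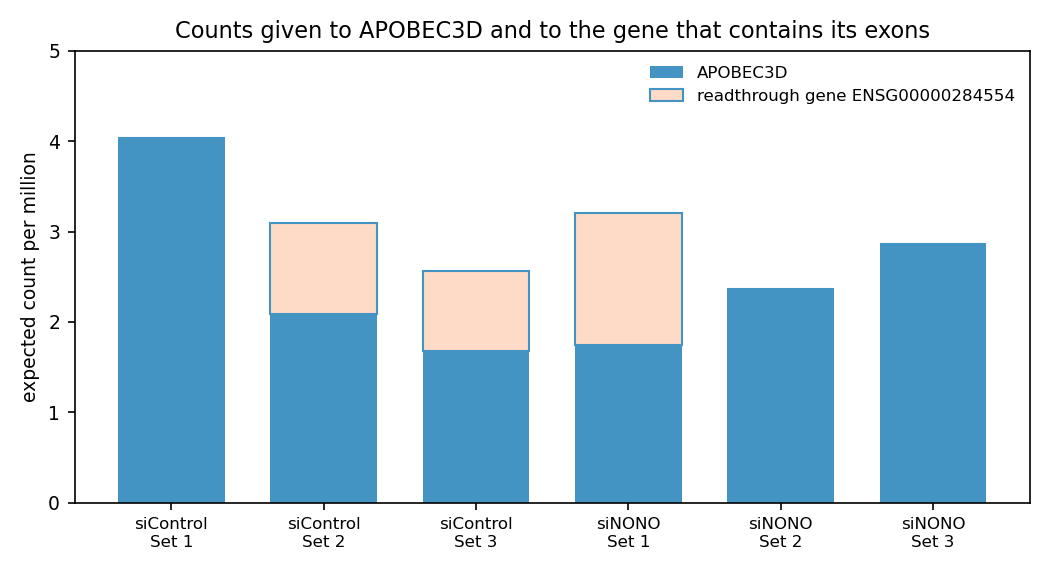
Expected counts as CPM (without TMM factors) assigned to APOBEC3D (blue) and to the readthrough gene that contains its exons (pale) in each library, stacked. The readthrough gene takes counts in 3 libraries only, and the stacked totals, 2.37 to 4.03, vary less than APOBEC3D alone, at 1.68 to 4.03.

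APOBEC3A (chr22:39348746-39359189), a single-centre member that is strongly induced in myeloid cells, was close to absent in every library. Its estimated counts were 0.95, 3.02 and 2.11 in siControl and 0, 2.23 and 0 in siNONO, and the TPM was at most 0.76. The rounded sums, 6 and 2 counts, gave a ratio of siNONO to siControl of 0.322 with an exact 95% counting interval of 0.0317 to 1.80, which covers counting error only. No difference was detectable at this depth. The effective length that RSEM assigned to APOBEC3A varied by 5.77 times between libraries, so its TPM follows isoform assignment as well as counts.

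Summed over the 7 members, the family was at 86.7, 83.2 and 91.7 TPM in siControl and 89.8, 85.8 and 91.2 TPM in siNONO. The means were 87.2 ± 4.29 and 89.0 ± 2.81 TPM (SD, n = 3), a ratio of 1.02 that is within the spread of libraries (exact two-sided permutation p = 0.7, without pairing by Set). A read moved between members changes their shares more than this sum. Per counts rather than per length, the sum was 137 ± 5.18 CPM and 148 ± 0.851 CPM (here without TMM factors), a ratio of 1.08. The exact two-sided permutation test, again without pairing by Set, gave p = 0.1, the smallest possible.

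Within the sum, the share of APOBEC3B was 16.2%, 17.5% and 16.3% in siControl and 9.99%, 12.2% and 11.4% in siNONO, without overlap. The share of APOBEC3F went from a mean of 14.9% to 17.1% and that of APOBEC3C from 61.0% to 63.8%. The mean share of APOBEC3G went from 2.63% to 3.18% and that of APOBEC3H from 1.49% to 2.51%. The shares of the latter 2 genes overlapped between groups, with 2.95% and 2.01% in siControl Set 1 against 2.84% and 1.93% in siNONO Set 2. In order of TPM, APOBEC3C stood first in every library and at 3.66 times APOBEC3B in siControl against 5.75 times in siNONO. The ranges of APOBEC3B and APOBEC3F did not overlap within either group. APOBEC3D, APOBEC3G and APOBEC3H followed, with ranges over libraries that overlapped each other in both groups. Within libraries, APOBEC3G was above APOBEC3H in 6 of 6, and APOBEC3D was above APOBEC3H in the 3 siControl libraries and below it in the 3 siNONO libraries. The effective length that RSEM assigned to APOBEC3D varied by 2.01 times between libraries. Its TPM can also depend on how RSEM divided counts with the readthrough gene. The part of either in this order was not tested. In siNONO Set 1 the readthrough gene had 1.03 TPM, with APOBEC3D at 1.70 and APOBEC3H at 2.41 TPM. In siNONO Sets 2 and 3 it was at 0, with APOBEC3D at 1.44 and 2.57 TPM and APOBEC3H at 1.66 and 2.66 TPM.

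**Figure D4:**
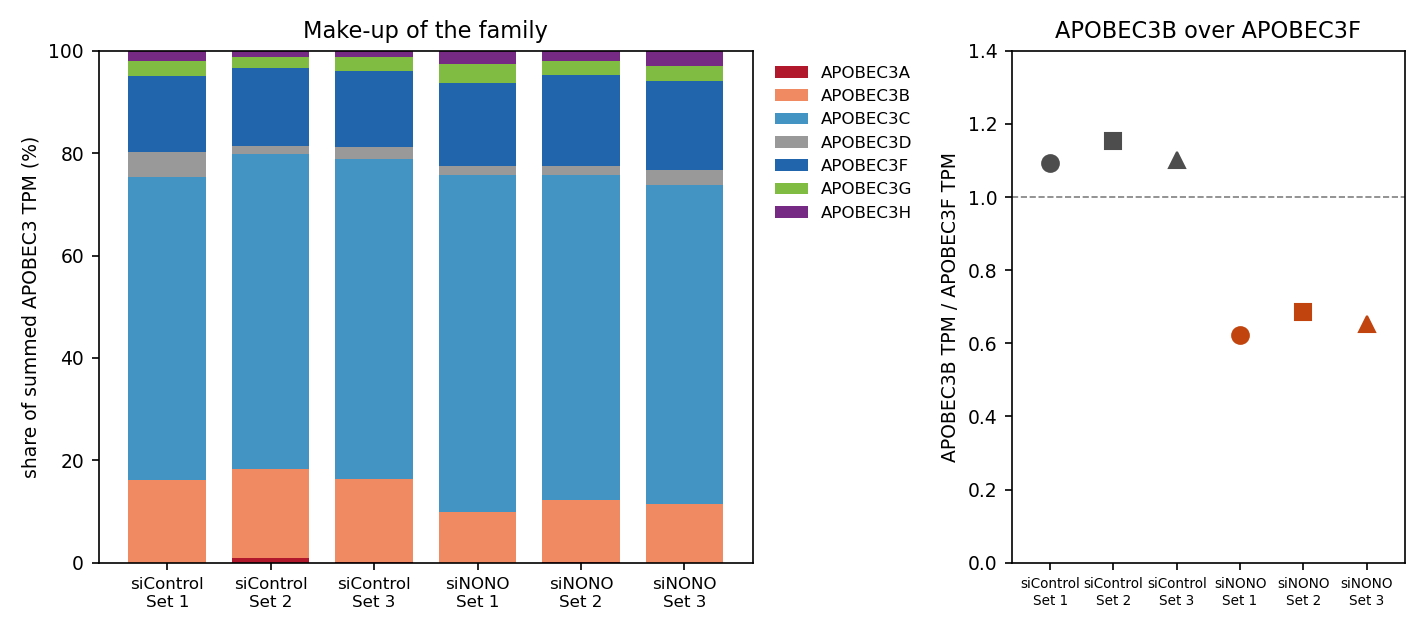
Left, the share of each gene in the summed APOBEC3 TPM of each library, in percent. Right, the ratio of APOBEC3B TPM to APOBEC3F TPM in each library, with a dashed line at 1: the siControl libraries are at 1.09 to 1.15 and the siNONO libraries at 0.622 to 0.684.

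Other APOBEC genes and their relatives were next examined. APOBEC1, APOBEC4, the pseudogene APOBEC3AP1 and the antisense gene APOBEC3B-AS1 had a count of 0 in all 6 libraries, and APOBEC2 had 26 counts in all. Only A1CF, an RNA-binding cofactor of APOBEC1, had enough counts to be tested among these, and it was called higher on few counts, 7, 12 and 7 in siControl and 26, 16 and 18.8 in siNONO (log2 fold change 1.17, SE 0.413, edgeR, Benjamini-Hochberg-adjusted p = 0.0341). That call was lost without the Set 1 or Set 3 library of either group, under DESeq2 and under limma. A1CF passed the filter on low counts through its siNONO libraries, which favours a call of higher. With at least 10 counts required in every library it was not tested. Of the RNA adenosine deaminases, which edit adenosine to inosine, ADAR was called higher at 0.72 (SE 0.0300, edgeR, Benjamini-Hochberg-adjusted p = 1.92e-09), ADARB1 was at 0.00 and not called, and ADARB2 had a count of 0 in all libraries.

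Other retroviral restriction factors were called higher in 8 of 9 tested genes, against 23.2% of all genes tested, with a list median of 0.98, and called lower in none. BST2, which tethers virions to the cell surface, had 94, 80 and 57 counts in siControl and 376, 280 and 418 counts in siNONO, a log2 fold change of 2.16. TRIM22, an interferon-induced ubiquitin ligase, was at 1.97. MX2, an interferon-induced GTPase that blocks nuclear entry of HIV-1, had 0 counts in all siControl libraries and 14, 20 and 28 in siNONO, which is at least 19.9-fold higher against a floor of 3 counts over the siControl group. The list median was the same with MX2 at that bound. MX2 passed the filter on low counts through siNONO alone, so among the 8 it could only be called higher. With at least 10 counts required in every library, 7 genes of the list were called. SERINC5, an envelope-targeting factor, was at 0.01 and not called, and SLFN11 was not tested, with 1 count in all. The called genes of this list ranged from 0.17 for MOV10 upwards, so the log2 fold changes of APOBEC3G and APOBEC3H were below the list median, and those of APOBEC3C and APOBEC3F below it as well. Many of these factors are induced by interferon. The list was drawn up with results of these libraries known, so its direction is not independent evidence.

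The cellular partners that Vif recruits to degrade APOBEC3 proteins were tested in 6 of 6 genes. Of these, 3 were higher, 1 was lower and 2 were not called, against 46.6% of all genes tested called in either direction, and the median was 0.11. CBFB, the transcription cofactor that stabilises Vif, was at 0.63, ELOC at 0.26 and ELOB at 0.17, the latter both adaptor subunits of the ligase. CUL5, its scaffold, was at -0.16. Without the Set as a block, 2 of the 6 were called.

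Uracil that deaminases leave in DNA is removed by glycosylases, and the abasic site is then cut and refilled. All 16 genes listed for this repair were tested, of which 6 were higher, 7 lower and 3 not called (46.6% of all genes tested were called in either direction), and the median was -0.02, near that of all genes. The lowest were LIG1, the replicative DNA ligase, at -0.50, FEN1, the flap endonuclease, at -0.46, and UNG, the main uracil glycosylase, at -0.40. The adjusted p-values of these genes in edgeR ran from 3.10e-07 to 3.81e-06 (Benjamini-Hochberg). The highest were REV3L, the catalytic subunit of translesion polymerase zeta, at 0.59, APEX2, an abasic endonuclease, at 0.43, and PARP1, a sensor of strand breaks, at 0.33. The list thus moved in both directions. LIG1, FEN1 and UNG each fell by a size close to the -0.46 of APOBEC3B, where 23.4% of all genes tested were called lower.

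The DREAM complex, a repressor of cell cycle genes that is known to act on APOBEC3B, had 11 listed genes, all tested. Of these, 5 were higher, 4 lower and 2 not called, with a median of 0.15, where 46.6% of all genes tested were called in either direction. LIN54, the DNA-binding subunit, was at -0.57, RBL1, a pocket protein, at -0.50, and LIN9 at -0.41. E2F5 was at 0.67, TFDP2, a dimerisation partner of E2F proteins, at 0.44, and LIN52 at 0.26.

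The genes on either side of the cluster were called in both directions as well. From CBX6 outwards on the side of APOBEC3A, CBX6 was at -0.16, NPTXR at 0.31, DNAL4 at 0.33 and SUN2 at -0.21. On the side of APOBEC3H, CBX7 was at 0.42, PDGFB at -0.18, RPL3 at 0.08, SYNGR1 at 0.31 and TAB1 at 0.14, and MGAT3 was not tested. In all, 6 of 9 neighbours were higher and 3 lower, against 23.2% and 23.4% of all genes tested, with a median of 0.14. These calls were small, and 5 of the 9 were called without the Set as a block or without the Set 2 library of siNONO.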

How the data were processed

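RNA-seq libraries were TruSeq Stranded mRNA libraries from 3 siControl and 3 siNONO samples. The authors used sickle for trimming, STAR for alignment to GENCODE transcripts on GRCh37 and RSEM (version 1.3.1) for counting, and deposited per gene an expected count (not normalized), TPM (scaled by RSEM for length and depth), FPKM (not used here), length and effective length. Whether counting used strand is not given in the sources used here.

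Expected counts were rounded and fitted in R (version 4.3.3) with edgeR (version 4.0.16, quasi-likelihood test in its edgeR 3 form, since the study used that series), TMM factors, filterByExpr and the Set as a block, which stands for the batch term of the study's methods. Benjamini-Hochberg adjustment ran over the 17000 genes tested, with a threshold of 0.05, and the SE came from the log2 fold change and F. The biological coefficient of variation was 3.51%. The Set numbers, from the labels, pair the libraries: deviations from the group means correlated at 0.428, 0.257 and 0.509 within Sets. Between different Sets they correlated at -0.444 to 0.159. The highest of these, 0.151 and 0.159, were between Sets 1 and 2, so the pairing was less clear there. No 2 libraries of the same group agreed within sampling noise. Nothing else says that libraries came from separate cultures, so p-values measure the spread between these samples. The script was tested on simulated data.

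Shared sequence was counted on 1 transcript per gene from a later GENCODE release mapped to GRCh37, against all transcripts of that release.

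Alternatives were no block, DESeq2's size factors or no TMM factors, no filter or at least 10 counts in every library, the edgeR 4 form, robust dispersions, DESeq2 (version 1.42.0), limma (version 3.58.1) on log2(TPM + 1) and log2(TPM + 0.1), each library left out, the sum in CPM, and 2 sums of similar genes added after the data were seen. The members and the lists (other APOBEC genes, RNA adenosine deaminases, uracil and abasic-site repair, restriction factors, Vif partners, DREAM, cluster neighbours, cell type markers) were chosen with earlier results of these data known. All 7 members and NONO were named, and from each list up to 3 called genes with the highest and the lowest log2 fold change. All neighbours, uncalled genes and genes at 0 were named outside this rule, after their values were seen. The exact permutation tests were added to levels that had been planned as description only. The values of 2 genes that these rules take in are not reported here.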

Additional observations from a re-analysis of the deposited data

How the results depend on the processing

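APOBEC3B was called lower under all 18 alternatives, at -0.54 to -0.41. APOBEC3F was called higher under 16, APOBEC3C under 14, and APOBEC3G and APOBEC3H under 13 each. Without the Set as a replicate block, the same 5 members were called, and the counts of Vif partners and of cluster neighbours called went to 2 and 5. It changed no other call of a member. On the list of other APOBEC genes only A1CF, a cofactor, passed the filter of the main fit, so the counts of that list below refer to A1CF alone. Of the same 17000 genes, DESeq2 with the replicate block called 5206. These included 3 of 6 tested members (2 higher), 0 other APOBEC genes and 8 of 16 uracil repair genes. Limma called 5257 of the 17000 genes on log2(TPM + 1) and 5250 on log2(TPM + 0.1). On either scale 2 of 6 members (1 higher), 0 other APOBEC genes, 2 of 6 Vif partners and 3 of 9 neighbours were called. For the members, Vif partners and neighbours these shares were close to that of all genes called by limma. The higher share of members called in the main fit was thus not seen with limma. With at least 10 counts in every library, 0 other APOBEC genes were left to call. With 1 library left out, 6497 to 7653 genes were called. Among them were 3 to 4 members, 2 to 3 of them higher, 0 to 1 other APOBEC genes and 5 to 9 neighbours. The log2 fold change of APOBEC3D ran from -0.53 to 0.50. The summed level in siNONO over siControl was 1.02 in TPM and 1.08 in CPM without TMM factors. The cause of these shifts was not tested. APOBEC3A and APOBEC3H rest on few counts, at most 3.02 and 38 in a library, which limits what could be detected.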

Other observations

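APOBEC3C had the most counts of the family and served as the reference for a search of similar profiles. Over the 6 libraries, the 3 genes whose log2 CPM followed it most closely among all genes tested included WSB2, a substrate adaptor of ubiquitin ligases (Pearson r = 0.996), and the pseudogene CTAGE3P (r = 0.990). Their log2 fold changes were 0.32 and 0.41, each above the 0.16 of APOBEC3C. With 6 libraries in 2 groups, these values describe the libraries and were picked as the highest among all genes.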
